A study of Rattus norvegicus with 18 samples.

Results

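The response of gene expression to spinal cord injury (SCI) was compared between the tissue layers of the rat bladder wall. For each gene, the quantity measured was an interaction, that is, the log2 change from Control to SCI-vehicle in detrusor minus the log2 change from Control to SCI-vehicle in mucosa. The members were the 12 libraries that this difference needs, out of 18 libraries in the series: 3 each from detrusor Control, detrusor SCI-vehicle, mucosa Control and mucosa SCI-vehicle. A positive interaction means that a gene rose more, or fell less, in detrusor than in mucosa. On the log2 scale an interaction of 1 is a 2-fold difference between the tissues' changes.

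All samples came from wild-type male Sprague Dawley rats that were 6 to 7 weeks old at the time of surgery. SCI-vehicle rats had a complete transection of the cord at the eighth thoracic level and then received sodium bicarbonate buffer (12 mM, pH 9.2) by intraperitoneal injection each day for 8 weeks. Control rats were uninjured and are labelled as having had no treatment, so injury and buffer injection cannot be told apart here. The remaining 6 libraries came from injured rats given inosine at 225 mg/kg per day in the same way, and they were left out of the fit of the interaction reported here. Ribosomal RNA was depleted from total RNA of the dissected layers, and the values are the authors' read counts per gene. The labels name 1 batch for every library and do not state whether the detrusor and mucosa samples with the same replicate number came from the same rat. Because bladders were divided into both layers, libraries of the layers may share rats, and the fit treats the 12 libraries as independent.

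Detrusor is the smooth muscle coat that contracts to empty the bladder, and mucosa is the urothelium with the connective tissue beneath it, the lamina propria. Transection of the cord above the sacral segments removes voluntary control of voiding, and the bladder goes on to contract without coordination with its outlet. The muscle layer then works against a poorly relaxing outlet and grows, whereas the urothelium faces stretch and high pressure. An interaction asks whether the layers responded alike. Because each library holds the RNA of a whole layer, fewer cells of a type and less RNA per cell cannot be told apart.

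Total counts ranged from 3787910 to 6575592 in the 12 libraries, and 15274 genes above 1 CPM (counts scaled to a common library size) in at least 3 of them were tested. Genes are listed by Ensembl identifier, and no file used here pairs these with gene names, so cell type markers, pathways and gene functions are not described. By the rule for naming genes, the 2 identifiers with the smallest interaction p in each direction are given, and other genes are described by counts and ranges. In Control, 7398 genes (48.4%) differed between detrusor and mucosa at an adjusted p under 0.05, and in SCI-vehicle 7852 genes (51.4%) did, in edgeR's quasi-likelihood test with Benjamini-Hochberg adjustment. As a check of the dissection, the tested genes were sorted by their levels in the 6 SCI-inosine libraries. This gave 869 mucosa-enriched genes and 503 detrusor-enriched genes, more than 4-fold higher in 1 layer, and 13902 others. The 12 libraries entered this sorting through the choice of tested genes and through scaling over all 18 libraries. Mucosa-enriched genes held 0.386% to 0.468% of normalised counts in 5 of the 6 detrusor libraries but 1.66% in detrusor SCI-vehicle replicate 1, against 5.37% to 7.59% in the mucosa libraries. The numbers of interactions called and the median interactions of mucosa-enriched and detrusor-enriched genes are therefore also given without that library. Other results, such as patterns of sign and the interactions of single genes, come from all 12 libraries unless stated otherwise.

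The interaction was significant for 10 genes at an adjusted p under 0.05, which is 0.0655% of the 15274 tested. All 10 were positive, and in each the detrusor level was higher and the mucosa level lower after injury. For all 10 genes, every detrusor SCI-vehicle library lay above every detrusor Control library, and every mucosa SCI-vehicle library lay below every mucosa Control library. That arrangement was found in 162 of the 15274 tested genes (1.06%), and the opposite arrangement in 75 (0.491%). Picking genes by interaction p in these same libraries favours such separation, so it is not further support. In the fitted model, the 10 genes rose in detrusor by 0.71 to 2.03 on the log2 scale, which is 1.64-fold to 4.08-fold, with unadjusted p-values of at most 0.00248. In mucosa their log2 changes ranged from -0.36 to -1.24, which left 42.2% to 78.2% of the Control level, with unadjusted p-values of at most 0.0153. The same picking favours small p-values for the change in each tissue, so these are not further support either, here or for the genes named below. Taken by itself, the detrusor change passed an adjusted p of 0.05 for 4 of the 10 and the mucosa change for 0 of the 10, with adjusted p-values in mucosa of 0.2996 to 0.527. The interactions of the 10 genes ranged from 1.27 to 3.23 (log2, median 1.78), with standard errors from 0.18 to 0.36 and adjusted p-values from 0.00931 to 0.0497. These values treat the libraries as independent. With same-number libraries of an injury group fitted as pairs, 0 of the 10 passed in edgeR and all 10 in DESeq2.

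**Figure D1:**
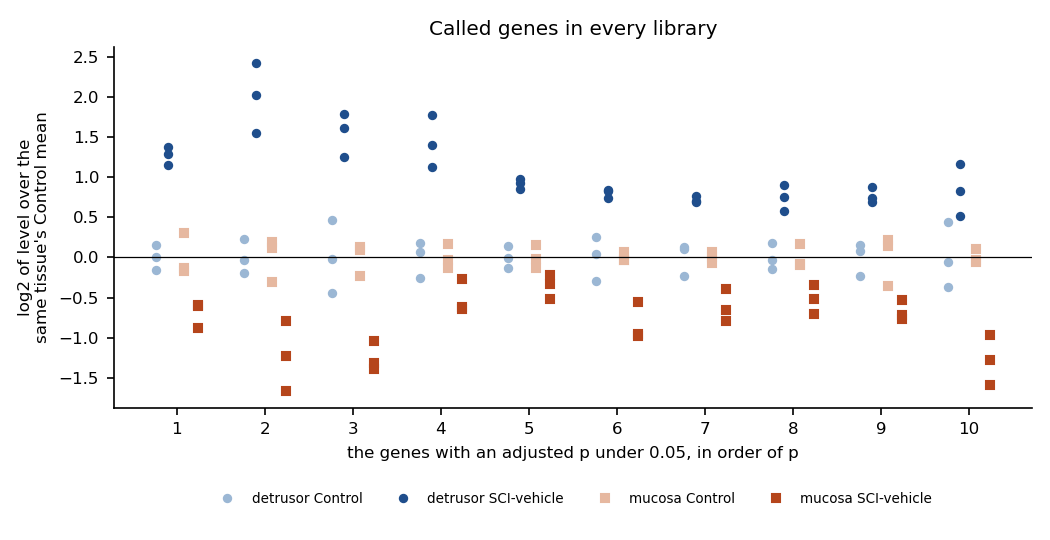
Each point is 1 library, plotted as the log2 of its level over the mean of the Control libraries of the same tissue, for the 10 genes with an adjusted interaction p under 0.05 in order of p (gene 1 is ENSRNOG00000019622 and gene 2 is ENSRNOG00000000525). For all 10 genes, the 3 detrusor SCI-vehicle points lie above the detrusor Control points and the 3 mucosa SCI-vehicle points lie below the mucosa Control points. The genes were picked in these same libraries, which favours such separation.

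ENSRNOG00000019622 had the smallest interaction p. Its level in detrusor was 95.3, 76.6 and 85.4 CPM in the Control libraries and 208, 190 and 222 CPM in the SCI-vehicle libraries (replicates 1, 2 and 3). In mucosa it was 139, 189 and 136 CPM in Control and 101, 83.2 and 101 CPM in SCI-vehicle. The 3 injured detrusor libraries were the highest of the 12, and the 3 Control mucosa libraries came next. The mean rose from 85.7 ± 9.36 to 207 ± 16.2 CPM in detrusor and went from 155 ± 29.4 to 95.1 ± 10.3 CPM in mucosa (mean ± SD, n = 3 per group). The interaction was 1.97 ± 0.21 (log2 ± SE; edgeR adjusted p = 0.00931), made up of a rise of 1.27 ± 0.15 in detrusor (adjusted p = 0.0129) and a value of -0.70 ± 0.15 in mucosa that did not pass on its own (adjusted p = 0.321). The order of the tissues was reversed. Detrusor minus mucosa was -0.85 (log2) in Control (adjusted p = 0.000675) and 1.12 in SCI-vehicle (adjusted p = 0.000127).

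ENSRNOG00000000525 had the largest interaction of the 10 genes. In detrusor its level was 162, 145 and 193 CPM in Control and 483, 672 and 882 CPM in SCI-vehicle. In mucosa it was 121, 127 and 89.6 CPM in Control and 47.5, 64.1 and 35.0 CPM in SCI-vehicle. The lowest injured detrusor library was well above the highest Control library, and the highest injured mucosa library was below the lowest Control library. The mean went from 167 ± 24.6 to 679 ± 199.6 CPM in detrusor and from 112 ± 20.0 to 48.9 ± 14.6 CPM in mucosa (mean ± SD, n = 3 per group). The interaction was 3.23 ± 0.36 (log2 ± SE; edgeR adjusted p = 0.00931), with a rise of 2.03 ± 0.26 in detrusor (adjusted p = 0.0153) and a value of -1.20 ± 0.26 in mucosa (adjusted p = 0.321). The gap between the tissues was 0.57 in Control, which did not pass (adjusted p = 0.0814), and 3.79 in SCI-vehicle (adjusted p = 4.52e-06). Both genes missed the threshold when detrusor Control replicate 2 was left out (adjusted p = 0.0600 for each) and when mucosa SCI-vehicle replicate 1 was left out (0.0585 for each), and they passed in the other 10 such fits. Over all alternatives the adjusted p of each ran from 2.20e-13, in DESeq2, to 0.0880. The largest came from edgeR with same-number libraries of an injury group fitted as pairs.

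An interaction is also a change in the gap between the tissues, and the 10 genes fell into 3 kinds by that measure. In 4 genes mucosa had the higher level in Control (detrusor minus mucosa -0.85 to -0.07, log2) and detrusor in SCI-vehicle (1.09 to 1.26). The gap in Control passed an adjusted p of 0.05 for 1 of these 4 and the gap in SCI-vehicle for all 4. In 3 genes mucosa was higher in both conditions but the gap shrank, from between -3.14 and -1.53 in Control to between -0.35 and -0.10 in SCI-vehicle, and the gap passed for all 3 in Control and for 0 in SCI-vehicle. In the remaining 3 genes detrusor was higher in both conditions and the gap grew, from between 0.50 and 0.88 to between 1.96 and 3.79. Hence the tissues became more alike for some of the 10 genes and less alike for others, although every interaction had the same sign. Among all 15274 tested genes, the order of the tissues turned in 2449, the gap shrank in 6718 and it grew in 6107. Each kind was thus common, and the mix is not read as a trait of the 10 genes. The genes were picked in these same libraries, so the p-values of the gaps are not further support.

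**Figure D2:**
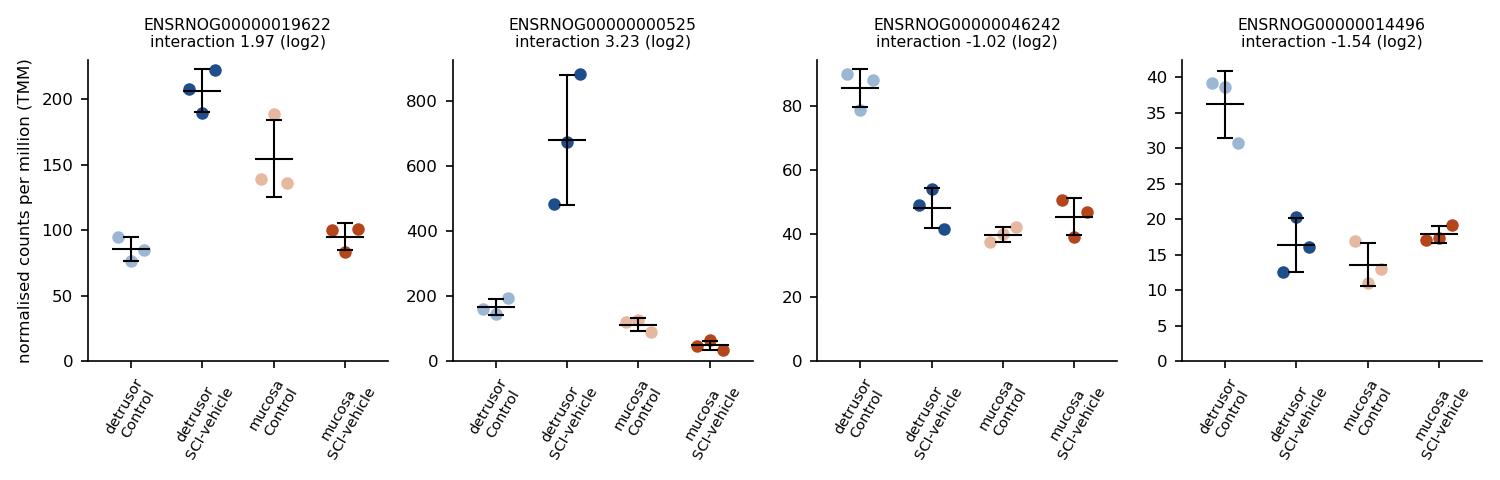
Normalised CPM (vertical axes, from 0) of the 4 named identifiers in each group, with 1 point per library and bars for the mean ± SD of 3 libraries. The first pair have positive interactions with an adjusted p of 0.00931, and the last pair have negative interactions with an adjusted p of 0.0981, above the threshold.

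In the negative direction, 0 genes passed an adjusted p of 0.05 in edgeR, whereas 694 had an unadjusted p under 0.05 and DESeq2 called 39. The gene with the smallest p in this direction was ENSRNOG00000046242. In detrusor it was at 90.1, 78.8 and 88.1 CPM in Control and at 48.8, 54.0 and 41.4 CPM in SCI-vehicle, whereas in mucosa it was at 37.3, 39.7 and 42.1 CPM in Control and at 50.4, 38.9 and 46.7 CPM in SCI-vehicle. The detrusor groups were apart and the mucosa groups overlapped. The interaction was -1.02 ± 0.19 (log2 ± SE; edgeR adjusted p = 0.0981). The fall of 0.83 in detrusor itself passed, just under the threshold (adjusted p = 0.0481), and the tissue gap was 1.11 in Control (adjusted p = 4.79e-05) against 0.09 in SCI-vehicle (adjusted p = 0.613). This gene too was picked by interaction p in these same libraries, so these p-values are not further support.

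The next was ENSRNOG00000014496. Its detrusor level was 39.2, 38.7 and 30.7 CPM in Control and 12.6, 20.3 and 16.2 CPM in SCI-vehicle, and its mucosa level was 16.9, 11.0 and 13.0 CPM in Control and 17.1, 17.3 and 19.3 CPM in SCI-vehicle. The groups did not overlap in either tissue, by a narrow margin in mucosa. The interaction was -1.54 ± 0.29 (log2 ± SE; edgeR adjusted p = 0.0981), with -1.14 ± 0.20 in detrusor (adjusted p = 0.0546) and 0.39 ± 0.20 in mucosa (adjusted p = 0.652). For both genes the injured detrusor level came close to the mucosa level. DESeq2 placed the pair under the threshold (adjusted p = 0.00155 for ENSRNOG00000046242 and 0.00158 for ENSRNOG00000014496), and the largest values over the alternatives were 0.251 and 0.262.

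Over all tested genes the interaction centred near 0, with a median of 0.01 (log2), and 90% of genes lay between -1.06 and 1.54. The median standard error was 0.34. At an unadjusted p under 0.05, 1210 genes (7.92%) had a positive interaction and 694 (4.54%) a negative one. The median interaction was 1.06 among the positive genes and -0.78 among the negative genes, and 54.1% and 37.8% of them differed by more than 2-fold between the tissues. Without detrusor SCI-vehicle replicate 1, the median over all genes was 0.02, with 1313 positive and 688 negative genes. The 90% range and the medians of the positive and negative genes were taken only from the fit of all 12 libraries. These unadjusted calls describe the shape of the response and are not a list of changed genes.

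Most of the unadjusted calls had changes of opposite sign in the tissues. Of the 1210 positive genes, 1016 (84.0%) were higher in detrusor and lower in mucosa after injury, 176 were higher in both and 18 lower in both. Of the 694 negative genes, 611 (88.0%) were lower in detrusor and higher in mucosa, 76 were lower in both and 7 higher in both. Among all tested genes these opposite patterns held for 23.9% and 23.4%, but a large difference between changes is more often reached when the changes oppose each other, so nothing is read from the contrast. Judged by the unadjusted p of each tissue's own change, detrusor alone passed in 624 of the positive genes and mucosa alone in 241, both passed in opposite directions in 159, and neither passed in 179. In the negative genes detrusor alone passed in 424, mucosa alone in 103, both in opposite directions in 28 and neither in 136. Both tissues passing in the same direction was seen in 7 of the positive and 3 of the negative genes. Over all tested genes, detrusor alone passed in 16.9%, mucosa alone in 5.74% and neither in 75%. Both passed in opposite directions in 1.22% and in the same direction in 1.15%. The interaction is made up of these changes, so picking by it shapes the counts and nothing is read from them.

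**Figure D3:**
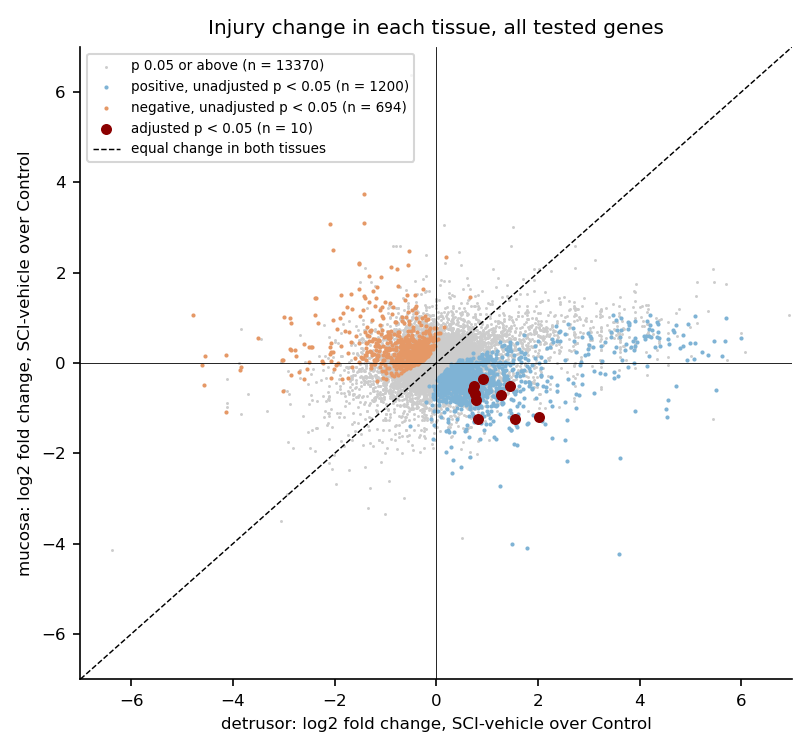
Each point is 1 of the 15274 tested genes, with its log2 fold change from Control to SCI-vehicle in detrusor (horizontal) and in mucosa (vertical). Genes on the dashed line changed equally in both tissues. Positive interactions lie below it (10 genes with an adjusted p under 0.05 as large points and 1200 more with an unadjusted p under 0.05), and the 694 negative ones lie above it.

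The components were uneven in size. In the same fit, the injury change in detrusor passed an adjusted p of 0.05 for 16 genes (0.105%), 8 higher and 8 lower, and an unadjusted p of 0.05 for 2937 genes (19.2%). Neither that number nor its even split held in every fit, since DESeq2 called 662 genes (437 higher, 225 lower), the fit without detrusor SCI-vehicle replicate 1 called 21 (18 higher, 3 lower), and the fits without detrusor Control replicate 1 or 2 called 0. The injury change in mucosa passed for 0 genes (0%) after adjustment in edgeR, for 1239 (8.11%) before it, and for 32 after adjustment in DESeq2. These counts do not show which genes differed between the tissues.

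The interaction was then read by tissue-enriched class. By the classes set in the SCI-inosine libraries, 9 of the 10 were in neither class and 1, ENSRNOG00000000525, was detrusor-enriched. Genes in neither class made up 91% of all tested genes and detrusor-enriched genes 3.29%, so nothing is read from the 9 of 10. The SCI-inosine libraries came from injured rats, so a gene whose tissue gap changes with injury can change class. In Control, ENSRNOG00000000525 had a gap of 0.57 (log2). In that group 8 of the 10 genes lay within 4-fold between the tissues, as did 12896 of the 15274 tested genes. The others of the 10 were higher in mucosa, with a gap as large as -3.14. Among the 869 mucosa-enriched genes the median interaction was 1.10 (log2), and 151 were positive (17.4%) and 6 negative (0.690%) at an unadjusted p under 0.05. Without detrusor SCI-vehicle replicate 1, the library with the high share of mucosa-enriched counts, the median interaction of these genes was 0.03 and the counts were 46 positive and 39 negative. In the 11 other fits that left out 1 library, the median lay between 1.00 and 1.40. A surplus of positive calls in mucosa-enriched genes therefore rests on that library. Among the 224 mucosa-enriched genes over 50 CPM, its median level was 2.72 (log2) above the detrusor Control mean, whereas replicates 2 and 3 of its group were at 0.52 and 0.36 and the Control libraries at -0.24 to 0.33.

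**Figure D4:**
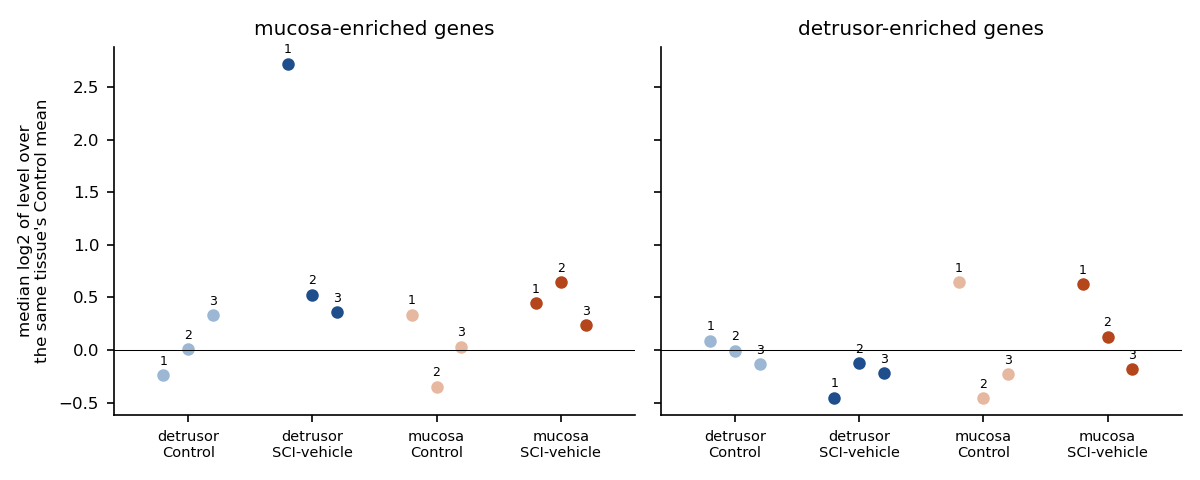
Median log2 level over the Control mean of the same tissue (vertical axis) for 224 mucosa-enriched genes (left) and 260 detrusor-enriched genes (right), with 1 point per library and its replicate number above it. Detrusor SCI-vehicle replicate 1 stands at 2.72 in the left panel, and the other 11 libraries lie between -0.35 and 0.64.

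Detrusor-enriched genes were split, with 46 positive (9.15%) and 41 negative (8.15%) of 503 at an unadjusted p under 0.05 and a median interaction of -0.32. This median was -0.70 without mucosa Control replicate 1, -0.10 without mucosa Control replicate 2 and -0.01 without mucosa SCI-vehicle replicate 1. It was -0.20 without detrusor Control replicate 1, -0.20 without detrusor SCI-vehicle replicate 1, -0.18 without mucosa Control replicate 3 and -0.48 without mucosa SCI-vehicle replicate 3. The share of counts on detrusor-enriched genes differed among mucosa libraries of the same group, from 2.18% to 5.58% in Control and from 2.59% to 5.32% in SCI-vehicle. Its part in the interaction was not tested. The 13902 genes in neither class had a median interaction of -0.01. They held 83.7% of the positive and 93.2% of the negative unadjusted calls, beside 91% of all tested genes. SCI-inosine detrusor replicate 2, which helped to set these classes, had counts on 14126 genes against 17393 and 17842 in the other libraries of its group. With that library left out of the classes, the mucosa-enriched median was 1.25 over 797 genes and the detrusor-enriched median was -0.38 over 542 genes.

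The number of significant interactions depended on single libraries. It was 128 (114 positive, 14 negative) without detrusor Control replicate 3 and 37 (34 positive, 3 negative) without detrusor SCI-vehicle replicate 1. It was 6, 0, 4 and 4 without detrusor Control replicates 1 and 2 and detrusor SCI-vehicle replicates 2 and 3. Leaving out the mucosa libraries gave 5, 2 and 3 for Control replicates 1, 2 and 3 and 0, 3 and 6 for SCI-vehicle replicates 1, 2 and 3. Positive calls were at least as many as negative calls in each of these fits, and the 10 genes kept a positive interaction in all 12. All 10 passed without detrusor Control replicate 3 and without detrusor SCI-vehicle replicate 1.

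**Figure D5:**
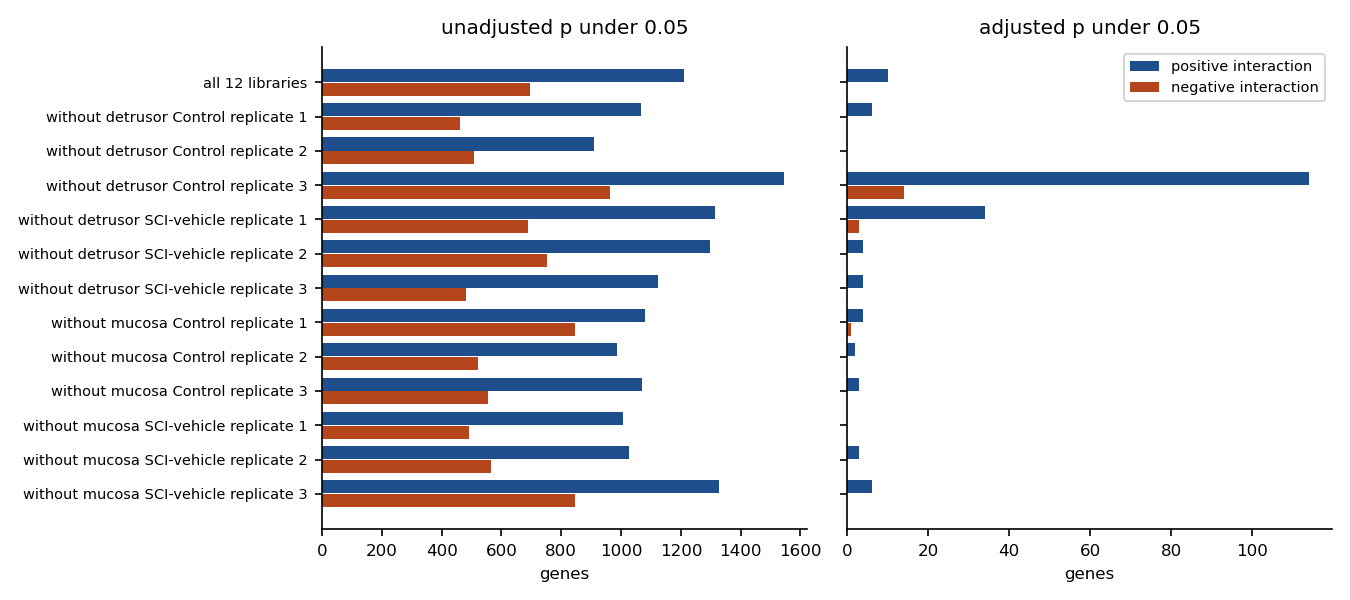
Number of genes with an interaction p under 0.05 before adjustment (left) and after it (right) in the fit of all 12 libraries and with each library left out, for positive (blue) and negative (orange) interactions. Unadjusted counts stay between 908 and 1544 for positive and between 460 and 963 for negative interactions, whereas adjusted counts run from 0 to 114 and from 0 to 14.

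DESeq2, the tool of the study's own comparisons, called more interactions than edgeR, with 235 genes (196 positive, 39 negative) at an adjusted p under 0.05. All 10 of edgeR's genes were among them, with adjusted p-values of at most 3.03e-05, against at most 0.0497 in edgeR on the same 12 libraries. Over the edgeR fits that left out 1 library, the largest was 0.201. DESeq2 was run without the CPM filter, on 22448 genes against 15274 in edgeR. Its default filter on mean counts was on and can leave low-count genes out of the adjustment, so the adjustment need not cover all 22448. Of its 196 positive genes, 190 were higher in detrusor and lower in mucosa and 6 were higher in both, and of its 39 negative genes, 36 were lower in detrusor and higher in mucosa and 3 lower in both. Both tissue changes had an unadjusted p under 0.05 in 114 of the positive and 14 of the negative genes, and in 1.37% of all 22448 genes. As with the unadjusted calls, selection on a large interaction favours changes of opposite sign, and nothing is read from these counts.

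The 10 genes were also read in the injured rats given inosine. These values share the Control libraries with the vehicle values, so they are set side by side and not compared by a test. The 10 genes were also picked by their SCI-vehicle values, which favours larger ratios there than in SCI-inosine. No effect of inosine is therefore read from smaller ratios. In detrusor the log2 ratio of SCI-inosine to Control ranged from 0.12 to 1.62 (median 0.71), beside 0.72 to 1.99 (median 0.88) for SCI-vehicle, and all 3 SCI-inosine libraries lay above all Control libraries for 6 genes and overlapped them for 4. In mucosa the SCI-inosine ratio ranged from -0.60 to 0.13 (median -0.31), beside -1.28 to -0.36 (median -0.68), with all SCI-inosine libraries below Control for 5 genes and overlapping for 5. The share of all tested genes whose SCI-inosine libraries lay apart from Control was not counted, so nothing is read from these counts of genes. ENSRNOG00000000525 was at 465, 420 and 549 CPM in the SCI-inosine detrusor libraries and at 134, 94.6 and 98.2 CPM in the SCI-inosine mucosa libraries, on a scale set over all 18 libraries. On that scale its Control mean was 167 CPM in detrusor and 113 CPM in mucosa, so that the SCI-inosine libraries stood high in detrusor and beside Control in mucosa. ENSRNOG00000019622 was at 104, 189 and 174 CPM in SCI-inosine detrusor and at 98.5, 206 and 231 CPM in SCI-inosine mucosa, where the libraries spread on both sides of the Control mean of 155 CPM.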

How the data were processed

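The authors sequenced ribosome-depleted total RNA as paired-end reads on 2 flow cells, and the deposited values are raw counts of reads per gene, added over both, for 32754 Ensembl genes. The labels' processing notes name Trim Galore 0.6.10, STAR 2.7.10a, featureCounts 2.0.3 and the build Rnor_6.0. The annotation release and the strand setting of the counting are not given in the sources used here, so overlapping and antisense genes may share reads.

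Libraries were assigned to groups by their labels. Genes above 1 CPM in 3 or more of the 12 libraries were fitted with 1 mean per group in edgeR 4.0.16 (R 4.3.3), scaled by TMM, and contrasts were tested by its quasi-likelihood F test (two-sided, Benjamini-Hochberg over all tested genes). Standard errors were taken as the absolute log2 change over the square root of F. DESeq2 1.42.0 was an alternative. The biological coefficient of variation was 21.7%. With 3 libraries per group, p-values measure the spread between these samples, which the study calls biological replicates, although no label names the rat behind each. Replicates of a group differed by more than counting noise (chi-square per degree of freedom 7.41 to 23.1). They were therefore not repeat counts of 1 library, and each counted as its own sample. These values do not show that each came from a different rat. The test was checked on simulated data.

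The comparison, the gene lists and the named-gene rule (the 2 identifiers with the smallest interaction p in each direction, as no gene symbols were at hand) were chosen with earlier results of these data known. Gene lists, marker lists and sequences need gene names and were not used here. Tissue-enriched classes (over 4-fold between SCI-inosine tissues, mean log2 CPM with a prior count of 2) stood in for marker sums and were chosen after the data were seen.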

Additional observations from a re-analysis of the deposited data

Results flagged for a closer look

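The injury change differed between detrusor and mucosa for 10 genes by a direct test of the difference (edgeR's quasi-likelihood interaction test, adjusted p under 0.05), all with a positive interaction. Among them, ENSRNOG00000019622 had an interaction of 1.97 and ENSRNOG00000000525 of 3.23 (log2). In both, the detrusor libraries were higher and the mucosa libraries lower after injury in 3 of 3 libraries each. That arrangement was found in 162 of the 15274 tested genes (1.06%). Both genes were picked by interaction p in these same libraries, so it is not further support. With same-number libraries of an injury group fitted as pairs, 0 of the 10 genes passed in edgeR and all 10 in DESeq2. Groups of 3 libraries are too small for a test of single outlying values.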

How the results depend on the processing

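The significant interactions numbered 7 with DESeq2's size factors and 7 with edgeR's filterByExpr, against 10 in the fit reported. They numbered 235 (196 positive, 39 negative) in DESeq2, 30 (29 and 1) with no filter on low counts, 19 (18 and 1) in a model of all 18 libraries, and 63 (57 and 6) without genes more than 4-fold different between Control tissues. Alternatives chosen after seeing the data gave 42 (38 and 4) without genes more than 4-fold different in SCI-inosine and 283 (252 and 31) without detrusor SCI-vehicle replicate 1 and detrusor Control replicate 3. Leaving out single libraries gave 0 to 128 (0 to 114 positive, 0 to 14 negative). The unadjusted counts ranged from 1415 to 2507 in those fits (908 to 1544 positive, 460 to 963 negative). The cause of these shifts was not tested. The 10 genes and the 2 named negative genes gave 273 gene results over the alternatives. The interaction kept its sign in all 273 and its side of the threshold in 169, which for the negative genes means not passing. One of the 10 genes failed to pass in 93 results, and a named negative gene passed in 11.

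The detrusor injury calls were 662 in DESeq2, 110 unfiltered, 45 with all 18 libraries, 86 and 111 without the genes enriched in Control and SCI-inosine tissues, 390 without the 2 detrusor libraries named above, and 0 (without detrusor Control replicate 1 or 2) to 335 (without detrusor Control replicate 3) with 1 library left out, including 5 to 10 without detrusor SCI-vehicle replicate 3, any mucosa Control library or mucosa SCI-vehicle replicate 1 or 3. The mucosa calls were 32 in DESeq2, 0 to 1 with 1 library left out (1 without mucosa Control replicate 2) and otherwise 0.

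Replicate numbers were not taken as pairs, since no label ties a number to a rat. Same-number pairs of detrusor and mucosa libraries correlated at 0.0453 to 0.238 in their deviations from the group means, 4 of 6 above 0.1. Pairs with different numbers ran from -0.248 to 0.117. Of the 6 detrusor libraries, 5 correlated best with their own number, a hint of pairing from the data and not from the labels. With the replicate number as a block, 3 of the 10 interactions and 2 detrusor changes passed. With the replicate block nested within injury group, 0 of the 10 passed in edgeR (smallest adjusted p = 0.0527, 1827 unadjusted), and in DESeq2 121 passed (105 positive, 16 negative), the 10 genes among them, with 1068 unadjusted (765 and 303). The gene-list alternatives were not run for want of gene names.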
